A study of Mus musculus with 2 samples.

Results

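Dividing cells of the adult mouse pituitary were picked out by their mitosis transcripts and sorted by the hormone they made. Male C57BL/6 mice aged 7 weeks and housed singly gave 2 pools of 3 glands, and each pool was digested for several hours and made into 1 droplet library. In such a library a unique molecular identifier (UMI) tags every transcript caught, and each barcode stands for a droplet that usually holds a single cell. There was no treatment, so cycling cells were set against non-cycling cells of the same hormone group and the same library. A barcode was called cycling when Spc25, Hmmr, Prc1, Top2a, Ube2c, Cenpf, Nusap1 and Ccnb2 together had at least 6 UMIs. Barcodes with under 250 genes or over 20% mitochondrial UMIs were left out, which kept 13565 of 13663. Of these 248 were cycling, 121 in library 1 and 127 in library 2. The hormone group followed the share of all UMIs: Gh above 30%, failing that Prl above 15%, then Pomc of at least 1%, then Cga of at least 1%, and otherwise none of these 4. These measured values chose the cells, so the 8 selection genes and the 4 hormone genes are described without a test.

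Gh encodes growth hormone and is made by somatotropes, and Prl encodes prolactin and is made by lactotropes. Pomc is the precursor of corticotropin and melanotropin, and Cga is the alpha subunit shared by the gonadotropins and thyrotropin. A cell that divides first copies its DNA in S phase, when the replication helicase, the sliding clamp and the enzymes of nucleotide synthesis are made, and then condenses and separates its chromosomes in mitosis. Entry into S phase is driven by E2F transcription factors and cyclin E, and mitosis by cyclin B with Cdk1 and by the Aurora and Polo kinases. The anaphase-promoting complex then marks cyclin B and securin for destruction. In the postnatal pituitary, cells that already make a hormone are known to divide, beside stem and progenitor cells.

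Barcodes called cycling were found in every hormone group, most of them in the Gh group. Those of the Cga group were weak in cycle genes outside the selection, as described below. The Gh group held 79 cycling of 3646 cells in library 1 and 82 of 3613 in library 2, or 2.17% (exact binomial 95% interval 1.72 to 2.69) and 2.27% (1.81 to 2.81). The Prl group held 19 of 1273 and 17 of 1539, or 1.49% (0.901 to 2.32) and 1.105% (0.645 to 1.76). The intervals of these groups overlapped in library 1 and did not in library 2. At a selection of at least 10 UMIs they overlapped in library 2 too, at 1.49 to 2.41 for Gh and 0.547 to 1.60 for Prl. The Pomc group held 2 of 384 and 3 of 487, or 0.521% and 0.616%. The Cga group held 2 of 329 and 1 of 380, or 0.608% and 0.263%. Both shares rest on so few cells that their intervals reach up to 1.87% and 2.18%. The group with none of the 4 hormones, which mixes other cell types with hormone cells below the limits, held 19 of 873 and 24 of 1041, or 2.18% and 2.31%. Over both libraries the share was 2.22 ± 0.0727% in the Gh group, 1.30 ± 0.274% in the Prl group, 0.568 ± 0.0673% in the Pomc group, 0.436 ± 0.244% in the Cga group and 2.24 ± 0.0913% in the none group (SD, n = 2). Intervals cover counting error only, and 2 libraries allow no test of the order of the groups. The groups differ in depth, which the selection on a UMI sum can feel. Averaged over the 2 libraries, the median of non-cycling cells was 4782 UMIs in the Pomc group, against 13400 in the Gh group. Outside the 4 hormones these medians were closer, at 4038 and 5092. With each barcode thinned to 2000 UMIs outside the 4 hormones and at least 2 selection UMIs, the shares were 2.40% for Gh, 1.43% for Prl, 0.721% for Pomc, 0.416% for Cga and 2.53% for none. That thinning left out 8 of 161 cycling and 451 of 7098 non-cycling Gh cells, and no cycling cell of the other groups.

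**Figure D1:**
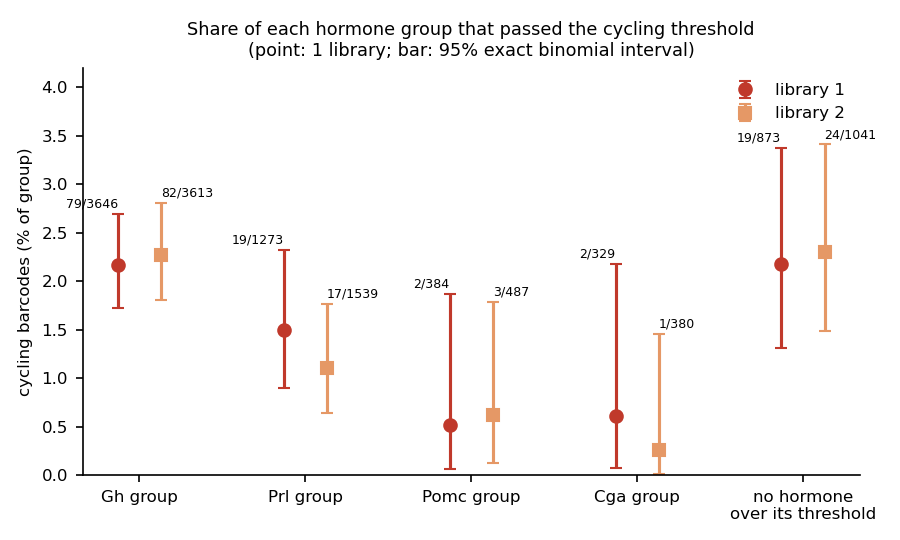
Share of each hormone group that was called cycling, in percent of kept barcodes, for library 1 and library 2 with exact binomial 95% intervals and the numbers of cells. The Gh and none groups sit between 2.17% and 2.31%, the Prl group at 1.49% and 1.105%, and the Pomc and Cga groups below 0.62%.

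Among all cycling cells, 65.3% and 64.6% belonged to the Gh group in libraries 1 and 2, against 55.9% and 50.9% of non-cycling cells. The Prl group made up 15.7% and 13.4% of cycling cells, against 19.6% and 21.95% of non-cycling cells. The none group made up 15.7% and 18.9% of cycling cells, against 13.4% and 14.7% of non-cycling cells. In both libraries the Gh group thus took a larger share of the cycling than of the non-cycling cells, and the Prl group a smaller one.

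The threshold of 6 UMIs fell in a sparse part of the distribution. Of the kept barcodes, 12724 had no UMI of the 8 selection genes and 488 had 1. Just outside the threshold 30 barcodes had 4 or 5 UMIs, and just inside it 24 had 6 or 7, while 108 had at least 30. Spc25, a kinetochore gene, was detected in 93.8% of the 161 cycling Gh cells, against 0.958% of the 7098 non-cycling ones. Hmmr, a spindle gene and the least often detected of the 8, was seen in 68.9% of cycling and 0.296% of non-cycling Gh cells. Among Prl cells Top2a, the topoisomerase of dividing cells, was seen in 94.4% of 36 cycling cells and 0.576% of 2776 non-cycling ones. These shares restate the selection.

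Genes that played no part in the selection split the cycling cells into those with many S-phase transcripts and those with few. A set of 53 S-phase genes (replication, nucleotide synthesis and their partners) and one of 75 mitosis genes were summed per cell and scaled to 10000 UMIs outside the 4 hormones. In the Gh group the S-phase sum was 45.0 and 47.95 in cycling cells of libraries 1 and 2, against 8.49 and 7.69 in non-cycling cells. The mitosis sum was 133.6 and 136.5 in cycling Gh cells, against 18.9 and 19.02 in non-cycling ones. For Prl cells the S-phase sum was 65.5 and 70.2 in cycling cells, against 6.69 and 7.07 in non-cycling cells. Its mitosis sum was 145 and 125 in cycling cells and 16.35 and 16.3 in non-cycling ones. In cycling cells both sums were far above the non-cycling level in each library, and the S-phase sum was higher in cycling Prl cells than in cycling Gh cells in both libraries.

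The 2 sums did not move together along the selection. In cycling Gh cells with 20 to 29 selection UMIs the median S-phase sum was 85.8 (26 cells), and in those with 30 or more it was 23.5 (69 cells). Over the same steps the median mitosis sum was 132 and 159. S-phase transcripts were thus richest in Gh cells of middling selection sums. In the Prl group the S-phase median was 16.8 with 20 to 29 selection UMIs (8 cells) and 71.1 with 30 or more (19 cells), beside mitosis medians of 158 and 156. Below the threshold, 65 Gh cells with 2 to 5 selection UMIs had a median S-phase sum of 13.0, with an upper quartile of 71.8. The 14 Prl cells with 2 to 5 selection UMIs had a median of 61.5. The median cycling cell had an S-phase sum of 40.4, and that level with at least 30 S-phase UMIs was reached by 74 of 161 cycling Gh cells and 22 of 36 cycling Prl cells. It was also reached by 56 non-cycling Gh cells and 12 non-cycling Prl cells, which the selection on mitosis genes did not take. The shares above therefore count cells with mitosis transcripts, not all cells in S phase.

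**Figure D2:**
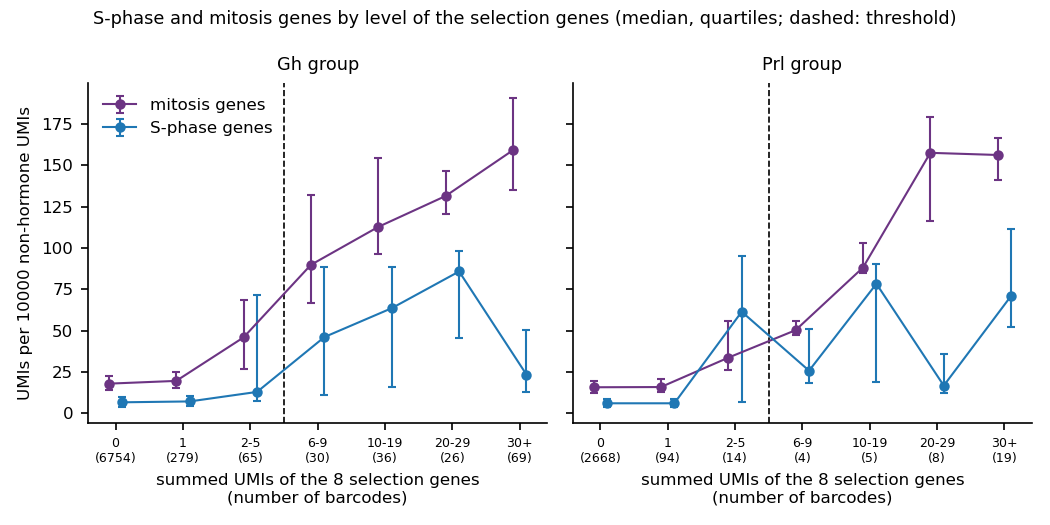
Median and quartiles of the summed mitosis genes (purple) and S-phase genes (blue), per 10000 UMIs outside the 4 hormones, against the summed UMIs of the 8 selection genes, for the Gh group and the Prl group. The dashed line is the threshold of 6 UMIs. In the Gh group S-phase genes peak at 85.8 for 20 to 29 selection UMIs and stand at 23.5 for 30 or more, where mitosis genes are at 159.

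Cycling cells were deeper than the cells they were set against. The median number of UMIs was 17570 and 16920 in cycling Gh cells of libraries 1 and 2, against 12910 and 13880 in non-cycling ones. Among Prl cells it averaged 12700 ± 375 in cycling cells and 9376 ± 411 in non-cycling cells (SD, n = 2). Gh took a smaller share of the UMIs in cycling Gh cells, 54.8% and 52.3%, against 61.9% and 61.1% in non-cycling ones. In number of UMIs the median cycling Gh cell held 9594 and 8384 of Gh, against 7846 and 8425, so that the groups overlapped. The median share of Prl averaged 26.9 ± 3.37% in cycling Prl cells and 36.1 ± 2.88% in non-cycling ones (SD, n = 2). The median number of Prl UMIs averaged 3136 and 3279 over the 2 libraries. The hormone shares were lower in cycling cells while the hormone UMIs per cell were alike within their spread. The 54 barcode sequences that occurred in both libraries included 3 cycling ones.

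Simulated-doublet scores were used to mark the 7.6% of barcodes per library with the highest scores. The size of that class was set in advance, so it cannot tell how many barcodes hold more than 1 cell. That class held 18 of 161 cycling Gh cells (11.2%), against 642 of 7098 non-cycling ones (9.05%). It held 5 of 36 cycling Prl cells (13.9%), against 118 of 2776 non-cycling ones (4.25%). Over both libraries the median score was 0.730 in cycling and 0.6 in non-cycling Gh cells. In Prl cells the median score was 0.707 in cycling and 0.567 in non-cycling ones. Barcodes above the limits for both Gh and Prl numbered 3 among cycling and 35 among non-cycling Gh cells. On the authors' deposited t-SNE map the median cycling cell had only cycling cells among its 15 nearest neighbours, and for 209 of 248 most neighbours were cycling. In the median cycling Prl cell 43.3% of the neighbours were of the Prl group, against 93.3% in the median non-cycling one. Cycling Prl cells thus lay among other cycling cells, and many of those were not of the Prl group.

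Raw UMIs were summed per library, hormone group and state and compared by edgeR's quasi-likelihood test with library as a block, with p-values adjusted over all genes by Benjamini-Hochberg at 0.05. The Gh, Prl and none groups entered this fit of 12 sums and 13291 genes, since the Pomc and Cga groups had under 10 cycling cells per library. With library as a block, these p-values rest on how differences among the sums varied between 2 gland pools. All groups came from the same 2 pools, and the spread between single animals was not measured. Averaged over the Gh and Prl groups, 1419 genes were higher (10.7% of those tested) and 2059 lower (15.5%) in cycling cells, and the median gene stood at −0.28 on the log2 scale. With DESeq2, which changes the scaling and the test together, that median moved by 0.206 to −0.076, and 1794 genes were higher and 1400 lower. With TMM on totals without the 4 hormones it moved by 0.02, and 1462 were higher and 1909 lower. In the Gh group 1462 were higher (11.0%) and 1833 lower (13.8%), and with DESeq2 1483 and 1168. In the Prl group 986 were higher (7.42%) and 1103 lower (8.3%), and with DESeq2 1362 and 665. The balance of higher and lower genes thus differed between edgeR and DESeq2, and the lists are read beside the median of all genes. Levels are given as CPM, the count scaled to 1e6 per library total after TMM scaling. A gene entered the test when its count was high enough in cycling or in non-cycling cells, so genes nearly absent from non-cycling cells were included.

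Mitosis genes outside the selection rose in all groups tested. Of 39 tested genes of mitotic kinases, motors and cytokinesis, 39 were higher and none lower (10.7% and 15.5% over all genes), with a median log2 difference of 7.19, against −0.28 over all genes. The median was 6.61 in the Gh group and 7.30 in the Prl group. Ccnb1, the cyclin B that activates Cdk1, was at 162.5 and 213 CPM in cycling Gh cells, against 0.524 and 0.837 CPM in non-cycling ones. In the Prl group it was at 166 and 85.45 CPM in cycling cells, against 0.0986 and 0.316 CPM in non-cycling cells (8.57 ± 0.30 over both groups, log2 difference ± SE, adjusted p = 5.4e-34). The cycling and non-cycling values lay far apart in both groups. Cdk1 itself was at 344 and 316 CPM in cycling and 3.22 and 2.69 CPM in non-cycling Gh cells. In Prl cells it was at 368.5 and 427 CPM in cycling and 0.986 and 1.66 CPM in non-cycling ones (7.49 ± 0.14, adjusted p = 9.15e-61). Birc5, which encodes survivin of the chromosomal passenger complex, stood at 396 and 404 CPM in cycling and 2.47 and 2.06 CPM in non-cycling Gh cells (8.12 ± 0.14 over both groups). Aurkb, the kinase of that complex, had the largest difference among genes of at least 50 CPM (8.92 ± 0.35), and Plk1, the Polo kinase, was at 8.25 ± 0.40. The spindle gene Ckap2l was at 8.65 ± 0.32. Mki67, the usual histological marker of dividing cells, was at 112 and 143 CPM in cycling and 1.76 and 1.19 CPM in non-cycling Gh cells, and at 73.7 and 111.5 CPM against 0.5915 and 0.395 CPM in the Prl group (6.98 ± 0.29, adjusted p = 1.05e-35). These genes took no part in the selection, and all of those named were high in cycling and near 0 in non-cycling cells of both groups.

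Kinetochore genes followed, with 23 of 24 tested higher, none lower, and a median of 5.58. Cenpa, the histone variant that marks centromeres, was at 406 and 381 CPM in cycling and 4.94 and 8.37 CPM in non-cycling Gh cells (6.61 ± 0.24 over both groups, adjusted p = 5.64e-10). Of 16 tested genes of the anaphase-promoting complex and its substrates 8 were higher and 2 lower. Over all genes 10.7% were higher and 15.5% lower, so the number lower was near that share. Cdc20, its mitotic activator, was at 358.5 and 375 CPM in cycling and 1.795 and 2.93 CPM in non-cycling Gh cells (7.34 ± 0.34 over both groups, adjusted p = 2.45e-07). Ube2s, the enzyme that extends ubiquitin chains for this complex, was at 1048 and 1133 CPM in cycling Gh cells, against 221 and 248 CPM in non-cycling ones (2.38 ± 0.07 over both groups). Pttg1, which encodes securin, the inhibitor of separase, was lower. It stood at 28.0 and 30.4 CPM in cycling and 53.7 and 52.3 CPM in non-cycling Gh cells, and at 7.37 and 22.3 CPM in cycling and 54.2 and 52.7 CPM in non-cycling Prl cells (−1.36 ± 0.21, adjusted p = 1.96e-07). The subunit gene Cdc26 was lower too (−0.79 ± 0.13). Pttg1 is thus a mitotic substrate gene whose level in these 3' libraries ran opposite to that of Cdc20 and Ube2s. The treatment of reads shared with related gene copies is unknown here, which makes the Pttg1 value uncertain.

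The promoters of 5 cycle genes are shown because short elements are known to tie genes to phases of the cycle. The CHR element (TTTGAA), often beside a CCAAT box, is known from genes of mitosis, and the E2F site (TTTNNCGC) from genes of S phase. Each sequence runs 5' to 3' from 250 bases before to 50 bases after the gene's start and is taken from RefSeq for GRCm38.p6. Capitals mark these letters on either strand. The positions are chr13:100786437-100786736 on the minus strand for Ccnb1, chr7:122159185-122159484 on the plus strand for Plk1, and chr4:118437294-118437593 on the minus strand for Cdc20. They are chr12:24708004-24708303 on the plus strand for Rrm2, and chr8:75109259-75109558 on the plus strand for Mcm5.
Ccnb1: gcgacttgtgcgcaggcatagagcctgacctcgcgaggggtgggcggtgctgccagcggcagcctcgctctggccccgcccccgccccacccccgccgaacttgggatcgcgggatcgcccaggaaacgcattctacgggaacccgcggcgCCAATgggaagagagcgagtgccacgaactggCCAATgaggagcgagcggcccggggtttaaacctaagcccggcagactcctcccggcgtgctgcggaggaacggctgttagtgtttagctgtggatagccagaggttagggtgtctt
Plk1: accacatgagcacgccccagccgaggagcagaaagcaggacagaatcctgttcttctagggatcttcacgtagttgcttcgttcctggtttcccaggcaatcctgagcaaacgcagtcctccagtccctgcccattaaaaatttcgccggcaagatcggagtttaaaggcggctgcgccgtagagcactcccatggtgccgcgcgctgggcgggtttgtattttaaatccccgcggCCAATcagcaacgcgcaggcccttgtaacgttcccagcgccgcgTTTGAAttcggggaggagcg
Cdc20: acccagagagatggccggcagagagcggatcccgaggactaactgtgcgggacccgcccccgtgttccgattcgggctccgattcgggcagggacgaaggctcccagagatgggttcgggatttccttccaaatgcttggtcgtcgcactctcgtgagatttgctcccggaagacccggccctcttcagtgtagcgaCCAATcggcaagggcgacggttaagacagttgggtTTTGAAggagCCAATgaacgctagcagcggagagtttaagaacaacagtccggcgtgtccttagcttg
Rrm2: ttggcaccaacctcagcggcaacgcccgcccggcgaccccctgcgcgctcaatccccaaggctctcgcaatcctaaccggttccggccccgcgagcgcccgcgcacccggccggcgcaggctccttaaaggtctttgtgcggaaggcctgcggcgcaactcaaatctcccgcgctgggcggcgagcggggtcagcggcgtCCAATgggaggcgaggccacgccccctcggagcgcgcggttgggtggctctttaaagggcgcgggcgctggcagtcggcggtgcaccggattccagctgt
Mcm5: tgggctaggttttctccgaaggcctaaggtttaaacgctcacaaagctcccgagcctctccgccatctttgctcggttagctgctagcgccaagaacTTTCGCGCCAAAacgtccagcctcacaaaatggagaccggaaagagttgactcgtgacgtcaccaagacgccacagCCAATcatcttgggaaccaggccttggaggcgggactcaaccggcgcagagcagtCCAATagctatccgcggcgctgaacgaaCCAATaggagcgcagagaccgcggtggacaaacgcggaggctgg
In these windows Plk1 and Cdc20 held a CHR and a CCAAT box, Ccnb1 and Rrm2 held CCAAT boxes alone, and Mcm5 held 2 overlapping E2F matches beside 3 CCAAT boxes. The CHR occurred in 28 of 50 matched promoters (56.0%) among the 62 mitosis and kinetochore genes that were higher, against 18.1% of all 27025 promoters of the same length. A CHR together with a CCAAT box occurred in 23 of these 50 (46.0%), against 7.12% of all promoters. Among 50 replication and nucleotide synthesis genes that were higher, 40 were matched, and 5 held a CHR (12.5%) and 13 an E2F site (32.5%), against 5.27% of all promoters with an E2F site. The CCAAT box alone was common in both sets, in 34 of the 50 mitosis promoters (68.0%) and 22 of the 40 replication promoters (55.0%), against 37.9% of all promoters. The E2F letters were found in 7 of the 50 mitosis promoters (14.0%). Among 12 secretory granule genes that were lower, 9 were matched, of which 2 held a CHR and 0 an E2F site. CHR letters were thus more frequent in the mitosis promoters and E2F letters in the replication promoters, as a count of letters and not of bound sites.

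Replication genes rose as well. Of 43 tested DNA replication genes 42 were higher and none lower over both groups (median 3.07), with 43 in the Gh group (median 2.59) and 41 in the Prl group (median 3.62). Over all genes 10.7% were higher and 15.5% lower over both groups (median −0.28). The share higher over all genes was 11.0% in the Gh group and 7.42% in the Prl group. All 8 genes of nucleotide synthesis were higher (median 3.26). Rrm2, the subunit of ribonucleotide reductase that is made in S phase, was at 211 and 220 CPM in cycling and 1.98 and 1.15 CPM in non-cycling Gh cells. In the Prl group it was at 313 and 327 CPM in cycling and 0.789 and 1.11 CPM in non-cycling cells (7.72 ± 0.17, adjusted p = 3.59e-56). Tk1, thymidine kinase, stood at 25.2 and 30.4 CPM in cycling Gh cells and at 95.8 and 108 CPM in cycling Prl cells (7.83 ± 0.42). Both genes were near 0 in non-cycling cells of either group. Mcm5, of the replication helicase, was at 57.9 and 46.0 CPM in cycling and 5.16 and 3.45 CPM in non-cycling Gh cells (4.17 ± 0.28 over both groups, adjusted p = 4.31e-23). Pcna, the sliding clamp, was at 142 and 147 CPM in cycling and 26.25 and 24.1 CPM in non-cycling Gh cells. In Prl cells Pcna was at 206 and 227 CPM in cycling and 15.2 and 19.7 CPM in non-cycling ones (3.07 ± 0.13, adjusted p = 1.52e-34). Pcna was above 15 CPM in non-cycling cells of both groups, and the cycling and non-cycling values of Pcna and Mcm5 did not overlap.

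Histones and chromatin packing genes were higher in 21 of 21 cases (median 3.38), against 10.7% higher and a median of −0.28 over all genes. Hmgb2, a chromatin protein of dividing cells, was at 1010 and 1085 CPM in cycling and 37.1 and 40.6 CPM in non-cycling Gh cells (4.86 ± 0.08 over both groups). H2afz, the histone variant H2A.Z, was the most abundant of those named, at 2835 and 2981 CPM in cycling and 644 and 569 CPM in non-cycling Gh cells (2.67 ± 0.07). The replication-dependent histone gene Hist1h2ap was at 258 and 499.5 CPM in cycling Gh cells and at 531 and 1352 CPM in cycling Prl cells, so the libraries differed about as much as the groups. Most such histone transcripts lack a poly(A) tail, which 3' libraries need for capture.

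Among cyclins, cyclin-dependent kinases and their activators, 15 of 19 were higher and 2 lower (median 3.27), against 10.7% and 15.5% over all genes. Ccna2, the cyclin of S phase and G2, was at 161.5 and 179 CPM in cycling and 1.46 and 0.7675 CPM in non-cycling Gh cells (7.18 ± 0.25 over both groups). Ccne2, a cyclin E gene of the start of S phase, reached 28.0 and 25.8 CPM in cycling Gh cells and 66.3 and 59.4 CPM in cycling Prl cells (4.10 ± 0.30). The lower genes were the D cyclins of G1. Ccnd1 was at 57.9 and 81.9 CPM in cycling and 91.8 and 108 CPM in non-cycling Gh cells, and at 47.9 and 26.0 CPM in cycling and 92.7 and 99.15 CPM in non-cycling Prl cells (−0.94 ± 0.15, adjusted p = 2.63e-07). Ccnd2 was at 250 and 315.5 CPM in cycling and 335 and 351.5 CPM in non-cycling Gh cells, and at 151 and 186 CPM against 382 and 420 CPM in the Prl group (−0.77 ± 0.08, adjusted p = 5.82e-13). Both D cyclins were lower in cycling cells of both groups and libraries, and the third, Ccnd3, did not pass the test (0.20 ± 0.14, adjusted p = 0.329). Ccnd1 and Ccnd2 stayed called under the 10 other settings tried.

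Inhibitors of the cycle went both ways, with 7 of 18 higher, 4 lower and a median of −0.002, against 10.7% higher, 15.5% lower and −0.28 over all genes. The number lower ran between 2 and 6 under the 10 other settings. Cdkn1a, which encodes the inhibitor p21, was at 98.0 and 99.35 CPM in cycling and 39.2 and 42.3 CPM in non-cycling Gh cells. In Prl cells it was at 88.4 and 126 CPM in cycling and 8.87 and 13.7 CPM in non-cycling ones (2.26 ± 0.16, adjusted p = 1.24e-20). Cdkn2c, which encodes p18 and restrains Cdk4 and Cdk6, was at 176.5 and 168 CPM in cycling and 34.9 and 30.7 CPM in non-cycling Gh cells (2.82 ± 0.11 over both groups, adjusted p = 2.43e-34). Cdkn2a, the locus of p16 and p19Arf, was low but higher in cycling cells, at 4.67 and 8.28 CPM against 0.711 and 0.384 CPM in the Gh group and at 14.7 and 37.15 CPM against 1.775 and 2.69 CPM in the Prl group (3.53 ± 0.48). The other higher genes were Cdkn1c, Cdkn2d, Rbl1 and Trp53. Gadd45g, a growth arrest gene, was at 74.7 and 86.5 CPM in cycling and 126 and 171 CPM in non-cycling Gh cells (−1.20 ± 0.14 over both groups, adjusted p = 2.14e-09). Gadd45g lost its call at a selection of at least 10 UMIs. Cdkn2b, Ccng1 and Btg1 were lower as well, but each lost its call under DESeq2, and Ccng1 was lower in the Gh group alone.

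Transcription factors of the cycle were higher in 9 of 10 cases (median 3.80), against 10.7% over all genes. Foxm1, which drives genes of G2 and mitosis, was at 36.4 and 37.7 CPM in cycling and 0.486 and 0.209 CPM in non-cycling Gh cells (6.69 ± 0.49 over both groups, adjusted p = 6.28e-21). E2f1, an activator of S-phase genes, was at 25.2 and 31.3 CPM in cycling and 5.72 and 3.94 CPM in non-cycling Gh cells (3.05 ± 0.27). E2f8, a repressor of the same family, was at 20.5 and 28.5 CPM in cycling and 0.224 and 0.174 CPM in non-cycling Gh cells (7.67 ± 0.54). DNA repair and checkpoint genes were higher in 18 of 20 cases (median 3.61), against the same 10.7%. Of 15 genes of ribosome biogenesis 5 were higher and 2 lower, against 10.7% higher and 15.5% lower over all genes, so the number lower was near that share. Their median was 0.05, or 0.33 relative to all genes. Those higher included Ran, the GTPase of nuclear transport and spindle assembly, at 567 and 571 CPM in cycling and 180.0 and 195 CPM in non-cycling Gh cells (1.83 ± 0.07), and the nucleolar gene Nop56 (1.16 ± 0.11).

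**Figure D3:**
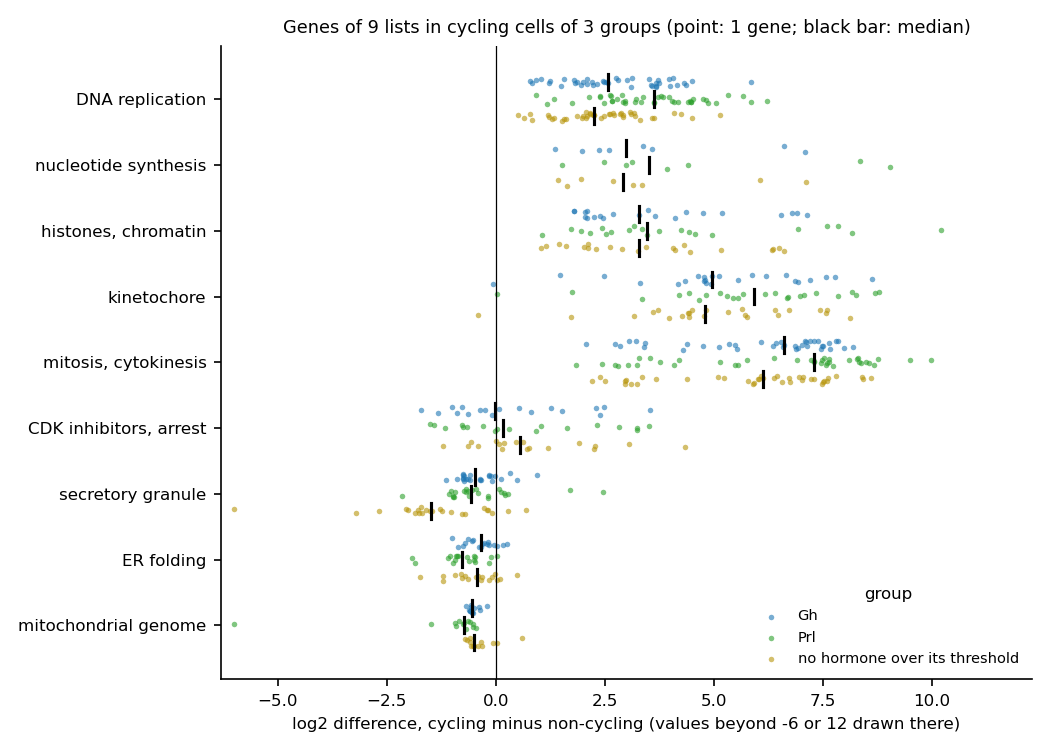
Log2 difference of cycling minus non-cycling cells for the tested genes of 9 lists, in the Gh, Prl and none groups, with a black bar at each median; values are clipped at −6 and 12. Mitotic genes lie highest, with medians of 6.61 in the Gh group, 7.30 in the Prl group and 6.12 in the none group, replication genes lie at 2.59, 3.62 and 2.27, and the medians of secretory granule genes lie below 0.

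Genes that mark somatotropes were lower in cycling Gh cells, though they were still made. Of 5 tested markers besides Gh, 4 were lower and none higher (median −0.76), against 13.8% lower and a median of −0.16 over all genes. Ghrhr, the receptor through which the hypothalamus drives growth hormone release, was at 101 and 105 CPM in cycling and 182 and 167 CPM in non-cycling Gh cells (−0.76 ± 0.12, adjusted p = 7.32e-07). Ppp1r14a, an inhibitor of myosin phosphatase, was at 71.9 and 60.7 CPM in cycling and 164.5 and 138 CPM in non-cycling cells (−1.19 ± 0.13, adjusted p = 4.96e-13). Pappa2, which encodes a metalloproteinase, was at 20.5 and 29.4 CPM in cycling and 69.0 and 86.4 CPM in non-cycling cells (−1.64 ± 0.18). Cycling and non-cycling values of these 3 genes did not overlap. The retinoid receptor gene Rxrg was also lower (−0.61 ± 0.16, adjusted p = 0.00138), but not under DESeq2 (adjusted p = 0.1) or against deeper non-cycling cells. These are the cells with at least as many UMIs outside the hormones as the lower quartile of cycling cells of their group and library. Pou1f1, the factor that specifies somatotropes, lactotropes and thyrotropes, was at 227 and 222 CPM in cycling and 211 and 216 CPM in non-cycling Gh cells (0.07 ± 0.09, adjusted p = 0.652). Of 21 pituitary transcription factors tested in the Gh group, 3 were higher and 1, Rxrg, lower, against 11.0% higher and 13.8% lower over all genes, so that the share called higher was near that of all genes. Neurod4, a factor of somatotrope development, was at 37.35 and 40.5 CPM in cycling and 20.1 and 21.9 CPM in non-cycling cells (0.89 ± 0.20, adjusted p = 0.000195). Insm1, a zinc finger factor of endocrine precursors, was at 79.4 and 84.6 CPM in cycling and 49.0 and 56.4 CPM in non-cycling cells (0.64 ± 0.13, adjusted p = 4.01e-05). The third was Sox4 (0.61 ± 0.20, adjusted p = 0.0248), which was 0.98 in library 1 and 0.18 in library 2 alone. Its call was lost without the library block, without barcodes of endothelial markers and against deeper non-cycling cells.

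Lactotrope markers were lower in cycling Prl cells. The 5 tested markers besides Prl were all lower, with a median of −1.27, against 8.3% lower and a median of −0.28 over all genes. With DESeq2 4 of the 5 were lower. Angpt1, which encodes an angiopoietin ligand, was at 14.7 and 11.15 CPM in cycling and 69.3 and 74.6 CPM in non-cycling Prl cells (−2.47 ± 0.42, adjusted p = 2.5e-06). Edil3, a secreted adhesion protein gene, was at 40.5 and 14.9 CPM in cycling and 96.8 and 90.0 CPM in non-cycling cells (−1.75 ± 0.31). Esr1, the estrogen receptor through which estradiol acts on lactotropes, was at 18.4 and 37.15 CPM in cycling and 67.5 and 65.9 CPM in non-cycling cells (−1.27 ± 0.34, adjusted p = 0.00351), or −1.86 in library 1 and −0.82 in library 2 alone. Asb4 (−0.93 ± 0.20) and Hepacam2 (−0.63 ± 0.18) were lower as well, and the Hepacam2 call was lost under DESeq2. In cycling Prl cells 5 of 21 pituitary transcription factors were lower and none was higher, against 8.3% lower and 7.42% higher over all genes. The median of the list was −0.14, above the −0.28 of all genes, so the list as a whole was not lowered. With DESeq2 4 were lower and 1 higher. Six6, a homeobox gene of the pituitary and hypothalamus, was at 173 and 160 CPM in cycling and 441 and 419 CPM in non-cycling Prl cells (−1.37 ± 0.14, adjusted p = 6.06e-13). Among the others were Pitx1, a homeobox gene of the whole anterior lobe (−1.50 ± 0.42), and Sox4 (−1.55 ± 0.28).

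**Figure D4:**
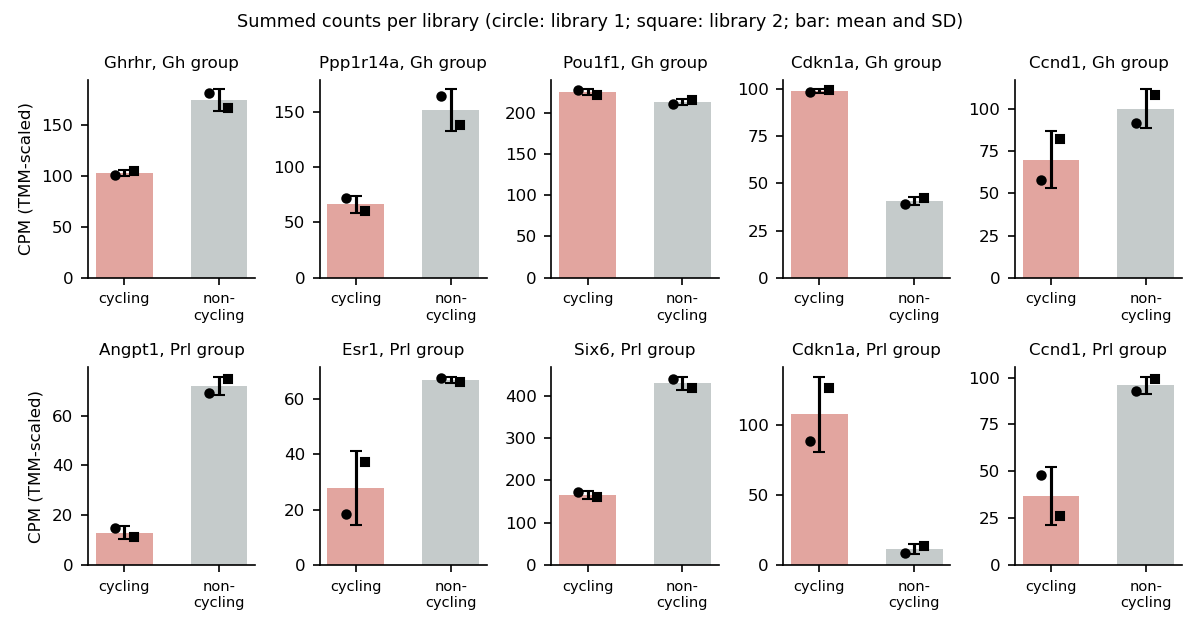
CPM per library (points) with mean and SD (bars), cycling left of non-cycling, for Ghrhr, Ppp1r14a, Pou1f1, Cdkn1a and Ccnd1 in the Gh group and Angpt1, Esr1, Six6, Cdkn1a and Ccnd1 in the Prl group. Receptor, marker and cyclin D1 values are lower in cycling cells, Pou1f1 is at 227 and 222 CPM against 211 and 216 CPM, and Cdkn1a is higher in cycling cells of both groups.

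Many genes of the secretory machinery were lower in cycling cells of both groups. Of 24 tested secretory granule genes 12 were lower and none higher, against 15.5% lower and 10.7% higher over all genes. Their median was −0.59, or −0.31 relative to the median of all genes. With DESeq2 10 were lower and 2 higher. Chgb, a granin that packs hormone granules, was at 811 and 887 CPM in cycling and 969 and 1235 CPM in non-cycling Gh cells, and at 3777 and 4458 CPM in cycling and 6460 and 6780 CPM in non-cycling Prl cells (−0.53 ± 0.06, adjusted p = 1.65e-12). In the single groups the Chgb calls were lost at a selection of at least 10 UMIs. Pcsk1n, an inhibitor of prohormone convertase, was at 1432 and 1179 CPM in cycling and 2323 and 2079 CPM in non-cycling Gh cells (−0.84 ± 0.06 over both groups, adjusted p = 3.06e-22). Snap25, of the vesicle fusion complex, was at 105 and 121 CPM in cycling and 210 and 207 CPM in non-cycling Gh cells (−0.98 ± 0.11). The 2 convertase genes Pcsk1 and Pcsk2 did not pass the test. Per 10000 UMIs outside the hormones, all granule genes together were at 76.2 and 72.4 in cycling and 97.6 and 95.1 in non-cycling Gh cells, and at 161 and 169 in cycling and 230 and 227 in non-cycling Prl cells.

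Among 18 folding genes of the endoplasmic reticulum, 11 were lower and none higher (median −0.56), against 15.5% lower and 10.7% higher over all genes. Calr, the lectin chaperone calreticulin, was at 181 and 219 CPM in cycling and 379 and 355 CPM in non-cycling Gh cells (−0.98 ± 0.08, adjusted p = 1.39e-18). Dnajb9, a co-chaperone induced by folding stress, was at 126 and 99.35 CPM in cycling and 222 and 231 CPM in non-cycling Gh cells, and at 62.6 and 123 CPM against 326 and 372 CPM in the Prl group (−1.46 ± 0.11). Xbp1, the transcription factor of the unfolded protein response, was at 109 and 107 CPM in cycling and 172 and 182 CPM in non-cycling Gh cells, and at 66.3 and 33.4 CPM against 173 and 190 CPM in the Prl group (−1.285 ± 0.12, adjusted p = 3.63e-15). Of 13 mitochondrially encoded genes 11 were lower and none higher (median −0.65), against the same 15.5% and 10.7% over all genes. mt-Co1, a subunit of cytochrome c oxidase, was at 3528 and 3724 CPM in cycling and 5471 and 5448 CPM in non-cycling Gh cells (−0.76 ± 0.05 over both groups). Relative to the median of all genes the granule, folding and mitochondrial lists stood at −0.31, −0.28 and −0.37, and with no low-count filter at −0.072, −0.04 and −0.13. In the Prl group the granule list stood at −0.295, and at −0.12 without barcodes of endothelial markers. Of 19 immediate early and heat shock genes 6 were lower and 1 higher (median −0.66), against 15.5% lower and 10.7% higher over all genes. Jun was at 324 and 447 CPM in cycling and 589.5 and 856 CPM in non-cycling Gh cells (−0.92 ± 0.10), while the chaperone gene Hsp90aa1 was at 1004 and 1108 CPM against 701 and 908 CPM (0.76 ± 0.06). Many of these genes respond to dissociation, and the part of the digestion in the difference was not tested.

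Among the 12 genes with the most negative difference averaged over the Gh and Prl groups, of at least 50 CPM, 3 were globins and Ghrhr was another. Ghrhr was at rank 3, ahead of Hbb-bs at rank 4, but its difference within the Gh group, given above, was much smaller than that of Hbb-bs. Its rank therefore came mainly from the Prl group, whose Ghrhr levels are not reported here, and does not measure the loss in Gh cells. Hbb-bs was at 16.8 and 18.4 CPM in cycling and 423 and 416 CPM in non-cycling Gh cells, and at 22.1 and 14.9 CPM against 568 and 393 CPM in the Prl group (−4.63 ± 0.15, adjusted p = 2.81e-25). Globin UMIs marked few cells. At least 3 UMIs of the 4 red blood cell markers were found in 4 of 79 and 1 of 82 cycling Gh cells (5.06% and 1.22%), against 81 of 3567 and 84 of 3531 non-cycling ones (2.27% and 2.38%). The highest cycling Gh cell had 5.18 of these UMIs per 10000 outside the hormones, against 4936 in the highest non-cycling one. The part that such non-cycling barcodes have in the difference was not tested. Others of the 12 included Aldoa, the glycolytic enzyme aldolase A, at 160 and 171 CPM in cycling and 559.5 and 607 CPM in non-cycling Gh cells, and at 73.7 and 115 CPM against 554 and 552 CPM in the Prl group (−2.19 ± 0.09, adjusted p = 3.76e-30). Dapl1 was at 111 and 131 CPM in cycling and 446 and 499 CPM in non-cycling Gh cells (−2.001 ± 0.25 over both groups). Ctsl, which encodes the lysosomal protease cathepsin L, was at 68.2 and 53.35 CPM in cycling and 272 and 241 CPM in non-cycling Gh cells (−1.90 ± 0.09, adjusted p = 2.89e-31). The tight junction gene Cldn9 was at −2.09 ± 0.37. Aldoa and Ctsl were lower in every library of both groups without overlap.

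**Figure D5:**
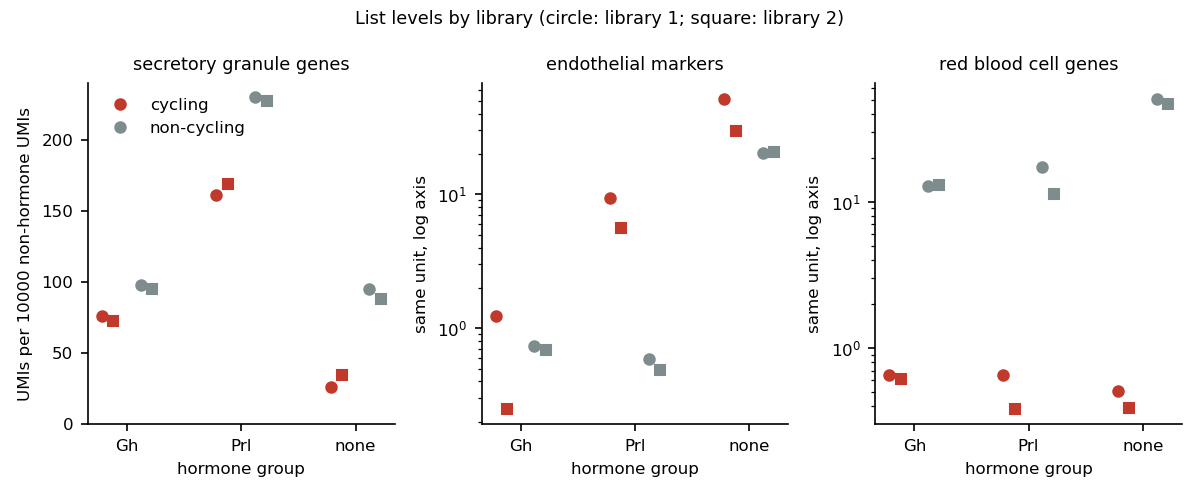
Summed UMIs of the secretory granule list (linear axis) and of the endothelial and red blood cell markers (log axes), per 10000 UMIs outside the 4 hormones, by library and group, cycling left of non-cycling. Granule genes are lower in cycling cells of all 3 groups, red blood cell markers are below 1 in cycling and above 10 in non-cycling cells, and endothelial markers are higher in cycling cells of the Prl and none groups.

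Markers of another cell type moved with the Prl group. Of 9 endothelial markers 6 were higher in cycling Prl cells (7.42% over all genes), and none passed the test in cycling Gh cells. The count for Prl cells was 8 with DESeq2, 2 at a selection of at least 10 UMIs, 1 without the highest doublet scores and 1 against deeper non-cycling cells. Their sum was 9.33 and 5.59 per 10000 UMIs outside the hormones in cycling Prl cells, against 0.589 and 0.485 in non-cycling ones, and 1.23 and 0.251 in cycling Gh cells, against 0.737 and 0.692. Plvap, a gene of fenestrated capillaries, was at 317 and 123 CPM in cycling and 18.3 and 15.9 CPM in non-cycling Prl cells (3.67 ± 0.55, adjusted p = 0.00886). At least 3 endothelial UMIs were found in 8 of 36 cycling Prl cells (22.2%, with 3 to 70 UMIs), against 12 of 2776 non-cycling ones (0.432%). Of those 8 barcodes 3 had a doublet score in the highest class, and their median share of Prl was 28.05%, against 29.4% in the other 28. Without such barcodes the cycling share of the Prl group was 1.003% (28 of 2792). Whether these barcodes hold 2 cells or 1 was not tested. Without them 4 of the 5 lactotrope markers were lower, the call for Hepacam2 was lost, and the list's median relative to all genes was −0.65, against −0.99 with them.

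The size of the cycling difference was then compared between the Gh and the Prl group in the same fit. It differed for 144 genes, 69 with a value higher in the Gh group (0.519% of those tested) and 75 lower (0.564%). With DESeq2 the counts were 43 and 88, and against deeper non-cycling cells 17 and 28, of which 42 were shared with the 144. Of 43 replication genes 5 had a smaller difference in the Gh group (Mcm2, Pcna, Rfc2, Rfc3 and Pold3) and none a larger one. For Pcna the cycling difference was 2.52 in the Gh group and 3.62 in the Prl group (Gh minus Prl −1.10 ± 0.22, adjusted p = 0.000975). The Pcna contrast kept its call under the 10 other settings. The histone chaperone gene Asf1b differed likewise (5.20 in the Gh and 6.93 in the Prl group, −1.73 ± 0.37, adjusted p = 0.00254) and was also called under all 10, though its size was −2.40 in library 1 and −0.93 in library 2 alone. For Mcm2 the contrast was −1.77 ± 0.37 (adjusted p = 0.00189), and its call was lost against deeper non-cycling cells. For Pcna and Mcm2 the level in the Gh group was lower in cycling cells and higher in non-cycling cells than in the Prl group. Mcm2 stood at 50.4 and 49.7 CPM in cycling and 11.9 and 9.94 CPM in non-cycling Gh cells, and at 81.1 and 66.9 CPM against 4.24 and 5.06 CPM in the Prl group.

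Cdkn1a differed by −1.96 ± 0.29 between the groups (adjusted p = 7.41e-06). Its level was alike in cycling cells, 98.0 and 99.35 CPM in the Gh and 88.4 and 126 CPM in the Prl group. In non-cycling cells it was 39.2 and 42.3 CPM in the Gh group and 8.87 and 13.7 CPM in the Prl group, so the contrast lay in the non-cycling cells. Against deeper non-cycling cells its adjusted p was 0.48. The contrast ran the other way, with a more negative difference in the Prl group, for Six6 (1.21 ± 0.20, adjusted p = 9.16e-05), for Sox4 (2.16 ± 0.35, adjusted p = 0.00052) and for Gng3, a G protein subunit gene (2.28 ± 0.39, adjusted p = 0.00011). Six6 was at 72.8 and 64.4 CPM in cycling and 76.8 and 76.1 CPM in non-cycling Gh cells, beside the Prl values given above. Sox4 was at 53.2 and 35.9 CPM in cycling and 26.85 and 31.6 CPM in non-cycling Gh cells, and at 36.85 and 66.9 CPM against 154 and 150.5 CPM in the Prl group. Gng3 was at 35.5 and 28.5 CPM against 29.8 and 26.65 CPM in the Gh group, and at 22.1 and 22.3 CPM against 99.6 and 91.2 CPM in the Prl group. For these 3 genes the non-cycling Prl level was the highest of the 4, and the cycling levels of both groups were close for Sox4 and Gng3. The 3 contrasts stayed called under the 10 other settings, and that of Sox4 was 3.03 in library 1 and 1.35 in library 2 alone.

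Cycling cells of the none group were of several kinds. By the marker list with the most UMIs, 15 of 43 were led by endothelial markers (8 and 7 in libraries 1 and 2), 7 by somatotrope, 6 by stem cell and 6 by fibroblast markers. Another 2 were led by lactotrope and 2 by macrophage markers, with 1 each for lymphocyte, pericyte and pituicyte markers, and 2 had under 3 UMIs of every list. The sums were not scaled to the length of the lists (9 endothelial, 10 stem cell and 6 fibroblast genes) or to gene abundance. Lists with more genes, or with more abundant ones, can therefore lead more easily. Endothelial markers led in 34.9% of cycling cells, against 15.45% of the 1871 non-cycling ones, and lactotrope markers in 4.65% of cycling cells, against 19.99% of non-cycling ones. The part of these shares in the gene differences of the group was not tested. In it 912 genes were higher (6.86%) and 643 lower (4.84%). When hormone UMIs were dropped from the totals, 747 were higher and 878 lower. All 39 mitotic genes were again higher (median 6.12), and Cdk1 was at 302 and 266 CPM in cycling and 3.15 and 3.96 CPM in non-cycling cells (6.29 ± 0.22, adjusted p = 1.5e-40). Cldn5, a tight junction gene of endothelium, was at 136 and 165 CPM in cycling and 29.1 and 39.5 CPM in non-cycling cells (2.12 ± 0.30, adjusted p = 0.000144). Pou1f1 was at 50.4 and 66.5 CPM in cycling and 130 and 134 CPM in non-cycling cells (−1.13 ± 0.20), a call lost against deeper non-cycling cells.

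Between the Gh and the none group the cycling difference differed for 223 genes, 118 higher in the Gh group (0.888%) and 105 lower (0.79%). When hormone UMIs were dropped from the totals the counts were 187 and 48, and with DESeq2 102 and 56. Ccng1, a target of p53, was lower in cycling Gh cells, at 30.8 and 11.0 CPM against 50.4 and 53.7 CPM, and higher in cycling cells of the none group, at 58.1 and 76.3 CPM against 30.1 and 29.75 CPM (Gh minus none −2.52 ± 0.36, adjusted p = 1.79e-06). Phlda3, another target of p53, was at 14.0 and 13.8 CPM in cycling and 21.5 and 24.4 CPM in non-cycling Gh cells, and at 69.8 and 49.25 CPM against 18.3 and 17.1 CPM in the none group (−2.41 ± 0.40, adjusted p = 1.9e-05). Both genes went opposite ways in the 2 groups and stayed called under the 10 other settings. The Ccng1 contrast was −1.65 in library 1 and −3.61 in library 2 alone. Cyp39a1, a cytochrome P450 that hydroxylates a cholesterol derivative, was at 66.3 and 39.6 CPM in cycling and 3.33 and 2.34 CPM in non-cycling Gh cells, and at 19.4 and 7.39 CPM against 4.79 and 3.85 CPM in the none group (2.69 ± 0.57, adjusted p = 0.00211). Ifi27l2a, an interferon-induced gene, was at 43.9 and 46.0 CPM in cycling and 5.12 and 4.57 CPM in non-cycling Gh cells, and at 267 and 175 CPM against 126 and 106 CPM in the none group (2.31 ± 0.24, adjusted p = 5.18e-11). Neither gene is on a cell cycle list, and their cycling differences in the Gh group were 4.21 and 3.21.

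The 5 cycling cells of the Pomc group and the 3 of the Cga group are described without a test. In the Pomc cells Pomc took from 3.37% to 42.85% of the UMIs, with a median of 8.002%, against 8.22% in non-cycling cells of the group. Their mitosis sum was 90.5 and 95.7 per 10000 UMIs outside the hormones in libraries 1 and 2, against 17.9 and 17.8 in non-cycling cells, and the S-phase sum was 20.4 and 62.8, against 6.96 and 7.25. Of these 5 barcodes 2 had a doublet score in the highest class, and without that class the share was 0.385%. The Cga cells were weaker on both counts. Their mitosis sum was 25.4 and 58.2, against 14.15 and 13.7, and the S-phase sum 8.82 and 6.62, against 5.12 and 5.12. Cga took 1.11%, 1.20% and 4.90% of their UMIs, against a median of 12.5% in non-cycling cells of the group, and Gh took 11.9% and 18.8% in 2 of the 3. Gonadotrope markers were at 99.0 and 88.5 per 10000, against 570 and 532 in non-cycling cells, and stem cell markers at 21.4 and 20.8, against 2.95 and 2.22. None of the 3 had a majority of cycling neighbours on the map. The library 1 values rest mainly on 1 of its 2 cells, which held 50450 UMIs outside the hormones, against 5098 in the other. Of the 3 cells 1 had a doublet score in the highest class.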

How the data were processed

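The files hold a matrix of raw UMI counts per gene and barcode, which the authors deposited for 2 libraries of pooled glands together (28693 genes, 13663 barcodes). Cells were captured with a 3' droplet kit, per the labels' protocols, and Cell Ranger, STAR and the mm10 build are named in the submitters' processing notes, with versions not given in the sources used here. The barcode suffix gave the library, with 70813117 and 78861988 UMIs in libraries 1 and 2 and medians of 10130 and 10640 per barcode. Barcodes under 250 genes (24 and 21) or over 20% mitochondrial UMIs (17 and 36) were left out. The authors also deposited a t-SNE map of the barcodes, whose coordinates are score values with settings not given in the sources used here, and it served to find the 15 nearest neighbours of each barcode. Counts of 58 repeated gene symbols were kept as deposited.

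Raw counts were summed per library, hormone group and state where each sum held at least 10 cells. They were tested with edgeR 4.0.16 (quasi-likelihood, robust, TMM scaling, filterByExpr) in R 4.3.3, with library as a block because each pool of glands gave both states, and with Benjamini-Hochberg adjustment over 13291 genes. The 12 selection and hormone genes stayed in the scaling and out of the tests. The fit of 12 sums left 5 residual degrees of freedom, and its common biological coefficient of variation was 0.0573. On simulated counts it recovered 87 of 100 genes changed by 1 on the log2 scale and 100 of 100 changed by 2. There were 14 false calls in that fit of 12693 genes, the changed ones included. Changed genes were drawn only from those with at least 5 expected UMIs in each cycling sum of the Gh and Prl groups. Counts were simulated at the common dispersion, so recovery of genes with fewer UMIs was not tested. DESeq2 1.42.0 was an alternative. The labels give no order or day for the libraries. The p-values rest on how differences among the sums varied between 2 pools, which gave all groups. Intervals of shares are exact binomial at 95%. Doublets were scored against simulated ones (2000 variable genes, 30 components) and kept. Scripts used Python 3.11.15, NumPy 2.4.6, SciPy 1.17.1 and scikit-learn 1.9.0.

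Genes named by size passed the test, had the same direction in both libraries and at least 50 CPM on the higher side. They were the 20 highest and 12 lowest of the average, 5 and 5 of each group and 6 and 6 of each contrast between groups; others come from the lists or were chosen after their values were seen. The cells, lists and tests were chosen with earlier results of these data known. Values of some single genes are not reported here.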

Additional observations from a re-analysis of the deposited data

Results flagged for a closer look

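The cycling difference itself differed between hormone groups for the genes below, by edgeR's quasi-likelihood test of the contrast with adjusted p under 0.05. Values are Gh minus the other group on the log2 scale, and cycling against non-cycling differences of the Gh group come first in each pair.

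Between the Gh and the Prl group, the contrasts with a positive value were Gng3 at 2.28 (0.18 in Gh and −2.10 in Prl), Sox4 at 2.16 (0.61 and −1.55), Hist1h4h at 2.16 (−0.53 and −2.70), BC029214 at 1.81 (−0.77 and −2.57), Lmo7 at 1.74 (0.11 and −1.64) and Crem at 1.66 (−0.20 and −1.86). Those with a negative value were Fabp4 at −5.28 (−1.31 in Gh and 3.96 in Prl), Rgcc at −3.42 (−1.07 and 2.35), Ndc80 at −3.04 (5.13 and 8.17), Cdca7l at −2.40 (3.19 and 5.60), Cdkn1a at −1.96 (1.27 and 3.24) and Ezh2 at −1.86 (4.41 and 6.28). Another 8 were singled out after their values were seen. These are Six6 at 1.21, Xbp1 at 1.15, Kif22 at 1.58, Cdc25b at 2.03, Pcna at −1.10, Mcm2 at −1.77, Cdk1 at −1.38 and Asf1b at −1.73. Fabp4 and Rgcc are also made by endothelial cells, and both lost the call without barcodes of endothelial markers and without the highest doublet scores. Gng3, Sox4, Six6, Ndc80, Pcna and Asf1b kept it under the 10 other settings.

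Between the Gh and the none group, the positive contrasts were Hbb-bs at 2.79 (−4.58 in Gh and −7.37 in none), Cyp39a1 at 2.69 (4.21 and 1.52), Npas4 at 2.68 (−0.10 and −2.78), Qpct at 2.37 (0.75 and −1.62), Ifi27l2a at 2.31 (3.21 and 0.90) and Slc9a3r1 at 2.11 (1.41 and −0.70). The negative ones were Rasip1 at −3.00 (−2.09 in Gh and 0.91 in none), Fabp4 at −2.71 (−1.31 and 1.40), Ccng1 at −2.52 (−1.32 and 1.20), Phlda3 at −2.41 (−0.72 and 1.69), Nbeal1 at −2.12 (−1.41 and 0.70) and Lmnb2 at −2.0 (1.44 and 3.44). Singled out after their values were seen were Cdkn1a at −0.99, Cdkn1c at 2.08 and Pou1f1 at 1.21. The none group mixes cell types in shares that differ between cycling and non-cycling cells, whose part in these contrasts was not tested. Ccng1, Phlda3, Cyp39a1, Ifi27l2a, Nbeal1 and Lmnb2 kept the call under the 10 other settings.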

How the results depend on the processing

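Of 208 single gene results under 10 other settings, 1988 of 2079 values kept their direction and side of the threshold, 90 lost the call and 1 changed direction. That one was the Gh minus Prl contrast of Fabp4, at 6.21 without barcodes of endothelial markers (SE 6.75, adjusted p = 0.91). Of the settings, deeper non-cycling cells lost 28 calls and DESeq2 20. The deeper cells numbered 980 of 1254 Prl cells in library 1 and 106 of 1522 in library 2, so that setting rests on unequal numbers and does not equal the depth of the cycling cells. From library 2 alone 54 of the 208 values lay at least the SD of the library values from the fitted value, and from library 1 alone 50. Either library lies within that SD of their midpoint by construction, so these counts do not test how well the libraries agree. Settings on deeper cells and on endothelial barcodes were chosen after seeing the data. The count of Gh against Prl contrasts was 144, against 219 with no low-count filter and 45 with deeper non-cycling cells. The count of Gh against none contrasts was 223, against 108 without the library block, 368 at a selection of at least 4 UMIs and 123 with deeper non-cycling cells. Leaving out the highest doublet scores, 99 Gh against Prl contrasts were higher and 69 lower, and without endothelial barcodes 63 and 45. At a selection of at least 10 UMIs, 192 Gh against none contrasts were higher and 83 lower. Without the block, which pairs the states of a pool, 1409 genes were higher and 2009 lower on average.

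At a selection of at least 4 UMIs the cycling share was 2.47% in the Gh group, 0.699% in the Pomc group and 2.64% in the none group. At 10 UMIs it was 1.805% in the Gh, 0.284% in the Cga and 1.94% in the none group. Thinned shares were 2.40%, 0.721% and 2.53% in the Gh, Pomc and none groups. Without the highest doublet scores the Pomc share was 0.385%, and without endothelial barcodes the Prl share was 1.01%. With either library left out the share ranged between 2.17% and 2.27% for Gh, 1.105% and 1.49% for Prl, 0.521% and 0.616% for Pomc, 0.263% and 0.608% for Cga, and 2.18% and 2.31% for none. Gene tests with a library left out, and any gene test of the Pomc and Cga groups, were not run, since no residual degrees of freedom or too few cells remained. The causes of these changes were not tested.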
